A study of Mus musculus with 9 samples.

Results

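This report describes the comparison of GFPhi with GFPlo SP4 thymocytes, the single positive CD4 cells of the mouse thymus, sorted from Nur77-eGFP BAC Tg animals. In this transgenic reporter a bacterial artificial chromosome drives eGFP from the regulatory DNA of Nr4a1, the gene that encodes Nur77, and every sample carries it. Thymocytes were gated as live CD25- CD69+ CD24+ CD4+ CD8-, a semi-mature stage, and about 10% of cells at each of the low, medium and high positions of the GFP distribution were sorted. The 6 samples compared here, of 9 in the series, are 3 GFPlo and 3 GFPhi samples of about 10000 cells each, and no treatment was given. Samples were chosen by their sort label alone. The comparison asks which genes differ between the cells with the weakest and the strongest reporter signal in a normal repertoire. Of 41978 genes in the table, the 28712 with at least 1 TPM, a count scaled to gene length and library total, in 3 or more of the 6 samples were tested. GFP was the sorting criterion, so Nr4a1 itself, reported by the transgene, is a check of the labels rather than a result. Mice of both sexes aged 3 to 10 weeks were used in the study outside its chimeras, and the samples are labelled as biological replicates. The sex and age behind each sample, and whether a sample pooled several animals, are not given in the sources used here.

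As background, a thymocyte that binds self peptide strongly through its T cell receptor (TCR) receives a long signal that passes through calcium and NFAT, ERK and AP-1, and NF-kB. Nur77 is induced early by that signal, so reporter brightness is read as the strength of recent TCR signaling. Strongly signaled cells may die by BIM-driven apoptosis, turn into regulatory T cells, or continue with damped signaling, while cells that pass selection change their chemokine receptors, gain S1P receptors and leave through the blood.

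Each of the 6 samples held between 7545460 and 11627359 reads on genes. Correlation across genes was 0.857 to 0.891 within the groups and 0.83 to 0.882 between them. Olfactory and vomeronasal receptor genes, which thymocytes are not known to use, took 2382 to 4353 RPM (reads scaled to the library total) in GFPlo and 2021 to 4299 RPM in GFPhi, and replicate 1 was highest in both groups. For that reason counts are also given without replicate 1 of both groups, an alternative chosen after seeing the data. Nr4a1 had 213, 187 and 251 TPM in GFPlo and 767, 917 and 836 TPM in GFPhi, without overlap. The SP4 markers Cd4, Cd3d, Cd3e, Trac and Zbtb7b were read in all samples, and of the 14 SP4 marker genes only Cd5 was called. Markers of other cells are given beside the results they touch, and in bulk RNA fewer cells of a type and less RNA per cell cannot be told apart.

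A gene was called when its log2 fold change on the log2(TPM + 1) scale was at least 1 in size and its adjusted p (limma, Benjamini-Hochberg) at most 0.05. By this rule 401 genes were higher in GFPhi, 1.40% of those tested, and 131 were lower, 0.456%. Without replicate 1 of both groups the counts were 180 and 72. That fit also left out GFPmed replicate 1. With fewer samples it has less power, and how many calls were lost for that reason was not tested. Read counts given for low genes were solved from the TPM and the authors' mean counts, and TPM here is per genomic span, so levels are compared only within a gene. The median log2 fold change of all genes tested was -0.09. Protein-coding genes made up 311 of the higher and 75 of the lower calls, 2.33% and 0.561% of the 13361 tested. Genes were then grouped by function into signaling, survival, trafficking, metabolism, and transcription factors with lineage genes. The lists were chosen with earlier results of these data known, so their shares describe the lists and are no test of them. The last group had 25 of 135 tested genes higher (18.5%) and 7 lower (5.19%), and it also holds receptors and other proteins from lists of regulatory T cell, lineage and quiescence genes. Without the 33 members that are no transcription factor, 18 of 102 were higher (17.6%) and 6 lower (5.88%), a choice made after seeing the data. Of the 135, 10 were also counted in the signaling group, 4 of them higher. The 25 include Nr4a1, which is a check of the labels. Of 266 signaling genes, 35 were higher (13.2%) and 7 lower (2.63%). Trafficking had 11 higher and 5 lower of 148, survival 4 higher and 1 lower of 70, and metabolism 4 higher and 0 lower of 316. The metabolism share of 1.27% higher lay near the 1.40% over all genes and below the 2.33% of protein-coding genes. The groups did not overlap for 63.9% of signaling genes and 63% of transcription factors and lineage genes, against 19.0% of all genes tested (8.72% higher and 10.3% lower) and 30.7% of metabolism genes. All genes tested include many that are not protein-coding, and the share without overlap among protein-coding genes alone was not computed. Without replicate 1 the higher and lower counts were 16 and 2 for transcription factors and lineage genes, 23 and 3 for signaling, 8 and 4 for trafficking, 2 and 1 for survival and 2 and 0 for metabolism.

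**Figure D1:**
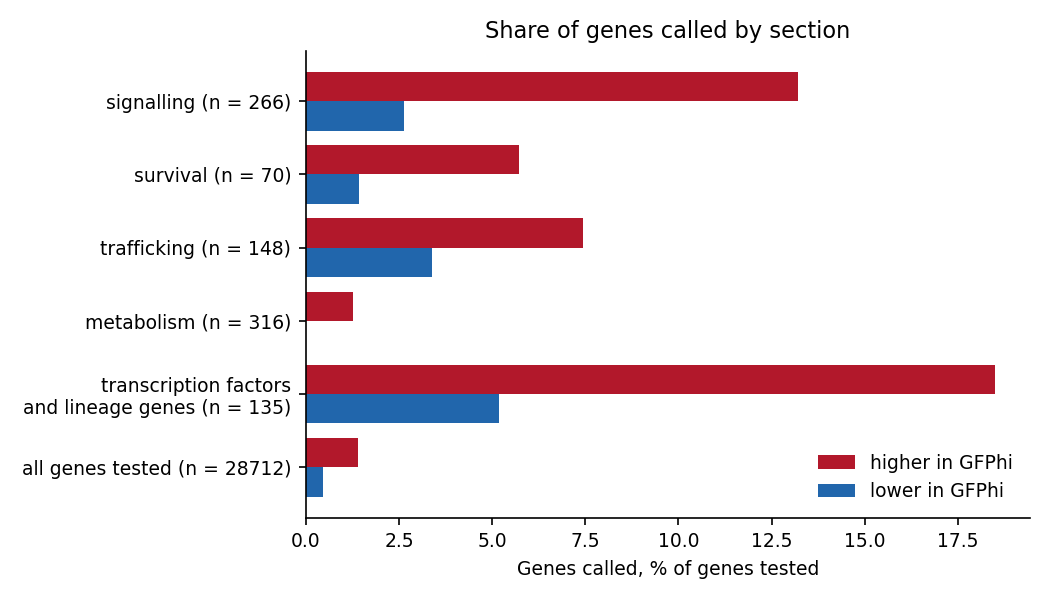
Share of tested genes called higher (red) or lower (blue) in GFPhi than in GFPlo, in % of the genes tested, for 5 groups of genes and for all genes tested. Transcription factors with lineage genes (18.5% higher) and signaling genes (13.2% higher), which share 10 genes, stand above the 1.40% of all genes, and metabolism genes (1.27%) do not. The lists were chosen with earlier results of these data known, so the shares are descriptive.

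At the fold limit, the core of the TCR machinery was nearly level between the groups. Of 35 genes of the TCR complex and its proximal kinases and adaptors, 0 were called higher and 1, Trat1, was lower, with a list median of -0.18. Trat1, a transmembrane adaptor that holds the TCR complex at the surface, had 25.3, 29.9 and 31 TPM in GFPlo and 10.7, 13.1 and 12.5 TPM in GFPhi. The GFPhi samples were all lower, with a log2 difference of -1.18 ± 0.12 (SE, adjusted p = 0.00176). Zap70, Lck and Lat had log2 fold changes of 0.11, 0.02 and -0.16. Without the fold limit, 2.69% of all genes tested passed the adjusted p limit as higher and 1.76% as lower. Of the 35, 5 passed as higher, among them Ptpn22 (0.78), a phosphatase of Lck, and Plcg1 (0.56), and 4 as lower, among them Rasgrp1 (-0.48) and Prkcq (-0.48), both activated by diacylglycerol. Both shares of this list lay above those of all genes.

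Cd5 (chr19:10717116-10739002 in GRCm38), an inhibitory receptor whose level follows TCR signal strength, had 184, 182 and 212 TPM in GFPlo and 532, 677 and 569 TPM in GFPhi. Cd6, its paralog, had 155, 157 and 154 TPM in GFPlo and 437, 534 and 458 TPM in GFPhi. The groups did not overlap for either, and the log2 fold changes of 1.61 and 1.60 had standard errors of 0.10 and 0.08 (adjusted p of 0.00018 and 6.08e-05). Among 14 inhibitors of ERK signaling, 4 rose and 1 fell. Dusp2, a nuclear phosphatase of ERK, had 332, 377 and 418 TPM in GFPlo and 937, 961 and 1068 TPM in GFPhi. Dusp5, likewise nuclear, had 54.9, 46.6 and 56 TPM in GFPlo and 112, 144 and 119 TPM in GFPhi. Dusp4 and Spry1 were low in GFPlo, with 18 to 39 and 1 to 6 reads per sample, and rose to 134 to 187 and 33 to 94 reads in GFPhi. The fold changes of the 4 genes ran from 1.23 for Dusp5 to 2.42 for Spry1. Dusp6, the cytoplasmic ERK phosphatase, moved the other way, from 524, 548 and 575 TPM in GFPlo to 272, 241 and 302 TPM in GFPhi. Its log2 fold change of -1.02 (adjusted p = 0.000678) lay at the limit, and it became -0.93 without GFPhi replicate 2 and -0.98 without GFPlo replicate 3. Without replicate 1 of both groups, Dusp4 and Spry1 were no longer called, which leaves 2 higher and 1 lower.

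Calcium and NFAT genes gave 0 calls of 22, and NF-kB genes gave 1 call of 32. Among the calcium genes, Itpr1, an IP3-gated calcium channel of the endoplasmic reticulum, had a log2 fold change of -0.96 and Orai3, a store-operated channel subunit, had 0.99, and both passed the adjusted p limit below the fold limit. Of the NF-kB genes only Bcl3, a nuclear IkB protein that binds p50 and p52 dimers, was called. Of the 32 fold changes 27 were above 0, with a median of 0.17 against -0.09 over all genes. Bcl3 had 5.03, 2.24 and 3.66 TPM in GFPlo and 106, 131 and 124 TPM in GFPhi, with a log2 difference of 4.74 ± 0.23 (SE, adjusted p = 6.08e-05). Without the fold limit, 9 of the 32 passed the adjusted p limit as higher and 1 as lower. The inhibitors Nfkbia (0.83), Nfkbie (0.85) and Tnfaip3 (0.83) and the subunits Nfkb2 (0.97), Relb (0.82) and Rel (0.75) were among the 9. Rela, by contrast, had -0.10.

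Promoters of Tnfrsf9, Tnfrsf25 and Il2ra are shown as examples that carry the letters of the kappaB motif, the sequence that NF-kB dimers bind. They were picked from promoters with a match, which also included those of Neurl3, Ube2c and Grasp. How many of the receptors that rose lack a match was not counted. Sequence came from RefSeq on GRCm38.p6, with 250 bases before and 50 after each annotated start, and the capitals mark the match. The Tnfrsf9 stretch lies at chr4:150927917-150927998 (plus strand), that of Tnfrsf25 at chr4:152116275-152116342 (plus) and that of Il2ra at chr2:11642552-11642641 (plus).
Tnfrsf9: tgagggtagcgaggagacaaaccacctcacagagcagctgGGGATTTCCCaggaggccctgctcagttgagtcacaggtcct
Tnfrsf25: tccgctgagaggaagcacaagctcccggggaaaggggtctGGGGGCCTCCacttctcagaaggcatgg
Il2ra: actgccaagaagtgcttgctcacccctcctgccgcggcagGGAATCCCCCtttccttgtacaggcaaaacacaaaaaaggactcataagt
The matches end 32, 18 and 190 bases before the annotated start, and that of Il2ra reads on the opposite strand. The table held 265 of the genes called higher and 68 of those called lower. On both strands, 44 of 320 windows of genes called higher held a kappaB match (13.8%), 12 of 102 of genes called lower (11.8%), and 1454 of 15322 of all genes tested (9.49%). Among all windows in the table the share was 8.46%. The NBRE motif AAAGGTCA, the monomer site of NR4A proteins, was found in 5 windows of higher genes (1.56%), 0 of lower genes and 1.25% of those tested. One of the 5 belongs to Stat5a, at chr11:100860400-100860483 (plus), where the letters stand on the opposite strand.
Stat5a: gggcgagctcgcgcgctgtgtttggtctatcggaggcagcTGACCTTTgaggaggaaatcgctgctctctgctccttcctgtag
The AP-1 motif TGANTCA was in 5.94% of windows of higher genes, 11.8% of lower genes and 6.32% of those tested. A match is a run of letters and no binding was measured.

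Cytokine receptors changed in both directions. Il2rb, the shared beta chain of the IL-2 and IL-15 receptors, had 5.8, 5.74 and 5.68 TPM in GFPlo and 75.6, 99.6 and 77.8 TPM in GFPhi. Il2ra, the alpha chain CD25, had 0.606, 0.648 and 0.741 TPM in GFPlo and 8.11, 9.85 and 11.2 TPM in GFPhi. Both rose, with log2 fold changes of 3.65 and 2.68, and the groups lay far apart although CD25 protein was excluded by the sort. Il7r (chr15:9505788-9530176 in GRCm38), the receptor of the survival cytokine IL-7, had 182, 218 and 199 TPM in GFPlo and 52.9, 55.7 and 59.7 TPM in GFPhi, with a log2 difference of -1.81 ± 0.09 (SE, adjusted p = 6.08e-05). Il12rb2 and Il10ra were also lower, at -1.28 and -1.17 (adjusted p of 0.00552 and 0.00854). Neither was called without replicate 1 of both groups. The common gamma chain Il2rg (-0.21) and Il4ra (-0.19) were not called. Downstream of these receptors, Cish, a STAT5-induced inhibitor, had 29, 21.7 and 24.9 TPM in GFPlo and 77.7, 87.2 and 108 TPM in GFPhi. Stat5a had 45.4, 45.1 and 47.3 TPM in GFPlo and 97.4, 96 and 109 TPM in GFPhi, while its paralog Stat5b had a log2 fold change of 0.06. Jak3 reached 1.07 (adjusted p = 0.0046), which was 0.94 without GFPhi replicate 2 and was not called without replicate 1 of both groups. Of the 22 JAK, STAT and SOCS genes, 3 were higher and 0 lower.

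Of 17 tested genes of the TNF receptor superfamily, 5 rose and 0 fell, and without replicate 1 the counts were also 5 and 0. Tnfrsf4, the costimulatory receptor OX40, had 67.5, 68.3 and 64.5 TPM in GFPlo and 712, 715 and 727 TPM in GFPhi. Tnfrsf1b, which encodes TNFR2, had 10.2, 9.82 and 10.9 TPM in GFPlo and 74.6, 76.3 and 76.4 TPM in GFPhi. Tnfrsf25, which encodes death receptor 3, had 8.96, 9.42 and 11.3 TPM in GFPlo and 84, 125 and 90.9 TPM in GFPhi. In all 3 genes the lowest GFPhi value lay above the highest GFPlo value, with log2 fold changes of 3.41, 2.77 and 3.20. Tnfrsf18, which encodes GITR, rose by 2.03 and Tnfrsf9, which encodes 4-1BB, by 5.96. Fas (0.76) and Cd27 (0.24) were not called and Tnfrsf1a, which encodes TNFR1, had -0.58. On the side of the ligands, Lta had 59.1, 52.2 and 62.6 TPM in GFPlo and 126, 162 and 156 TPM in GFPhi, with a log2 difference of 1.33 ± 0.11 (SE, adjusted p = 0.000712). Tnfsf8 and Fasl also passed but each lost the call in 8 of 9 fits with 1 sample left out, with adjusted p up to 0.121 and 0.171.

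Of 22 CD28 family and inhibitory receptor genes, 7 were higher and 1 lower. Slamf6, an adhesion receptor of the SLAM family, had 11.3, 14 and 11.7 TPM in GFPlo and 41.7, 40.2 and 38.6 TPM in GFPhi. Cd83, which stabilizes MHC class II and CD86 at the cell surface, rose from 1 to 18 reads per sample to 137 to 177 reads. Cd86, a ligand of CD28 and CTLA-4, rose by 1.51, a call lost in 5 of 9 fits with 1 sample left out, namely without GFPhi replicate 2 or 3 or any GFPlo replicate (adjusted p up to 0.0889). Cd101 rose by 1.19, a call lost without GFPhi replicate 3 or GFPlo replicate 2 or 3 (up to 0.0624). Cd226, an activating receptor for CD155, fell, from 8.61, 11.7 and 11 TPM in GFPlo to 3.51, 3.05 and 3.76 TPM in GFPhi. Icos (0.45), Cd28 (-0.26) and Lag3 (-0.11) were not called. Without replicate 1 the counts were 5 and 0, and Cd86, Cd101 and Cd226 were not called there.

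Among 24 RGS and G-protein genes, 4 rose and 0 fell. Rgs16, which shortens signaling through Gi- and Gq-coupled receptors, had 3.58, 1.56 and 4.05 TPM in GFPlo and 44.4, 52 and 43.3 TPM in GFPhi, with a log2 difference of 3.60 ± 0.27 (SE, adjusted p = 0.00042). Ptger2, the EP2 receptor of prostaglandin E2, rose by 2.53 from 3 to 18 reads to 127 to 189 reads, and was not called without replicate 1. Gpr171, a G-protein-coupled receptor, had 52.2, 48.7 and 52.5 TPM in GFPlo and 107, 104 and 119 TPM in GFPhi. Rgs11 was called at 1.10 but lost the call in 7 of 9 fits with 1 sample left out (adjusted p up to 0.129). Rgs2 (-0.61) and Gpr174 (-0.83) lay below 0 and were not called. Cytokine genes were few. Csf2, which encodes GM-CSF, fell from 24 to 63 reads per sample to 2 to 9, with a log2 difference of -2.50 ± 0.38 (SE, adjusted p = 0.0102). Xcl1, a chemokine for cross-presenting dendritic cells, rose from 0 to 6 reads to 30 to 55. Il21 rose by 1.21 (adjusted p = 0.0113, and 0.0529 without GFPhi replicate 3). None of the 3 was called without replicate 1. Ccl5 (1.08), Il2 (0.36), Il4 (-0.36) and Il10 (-0.28) were not called.

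**Figure D2:**
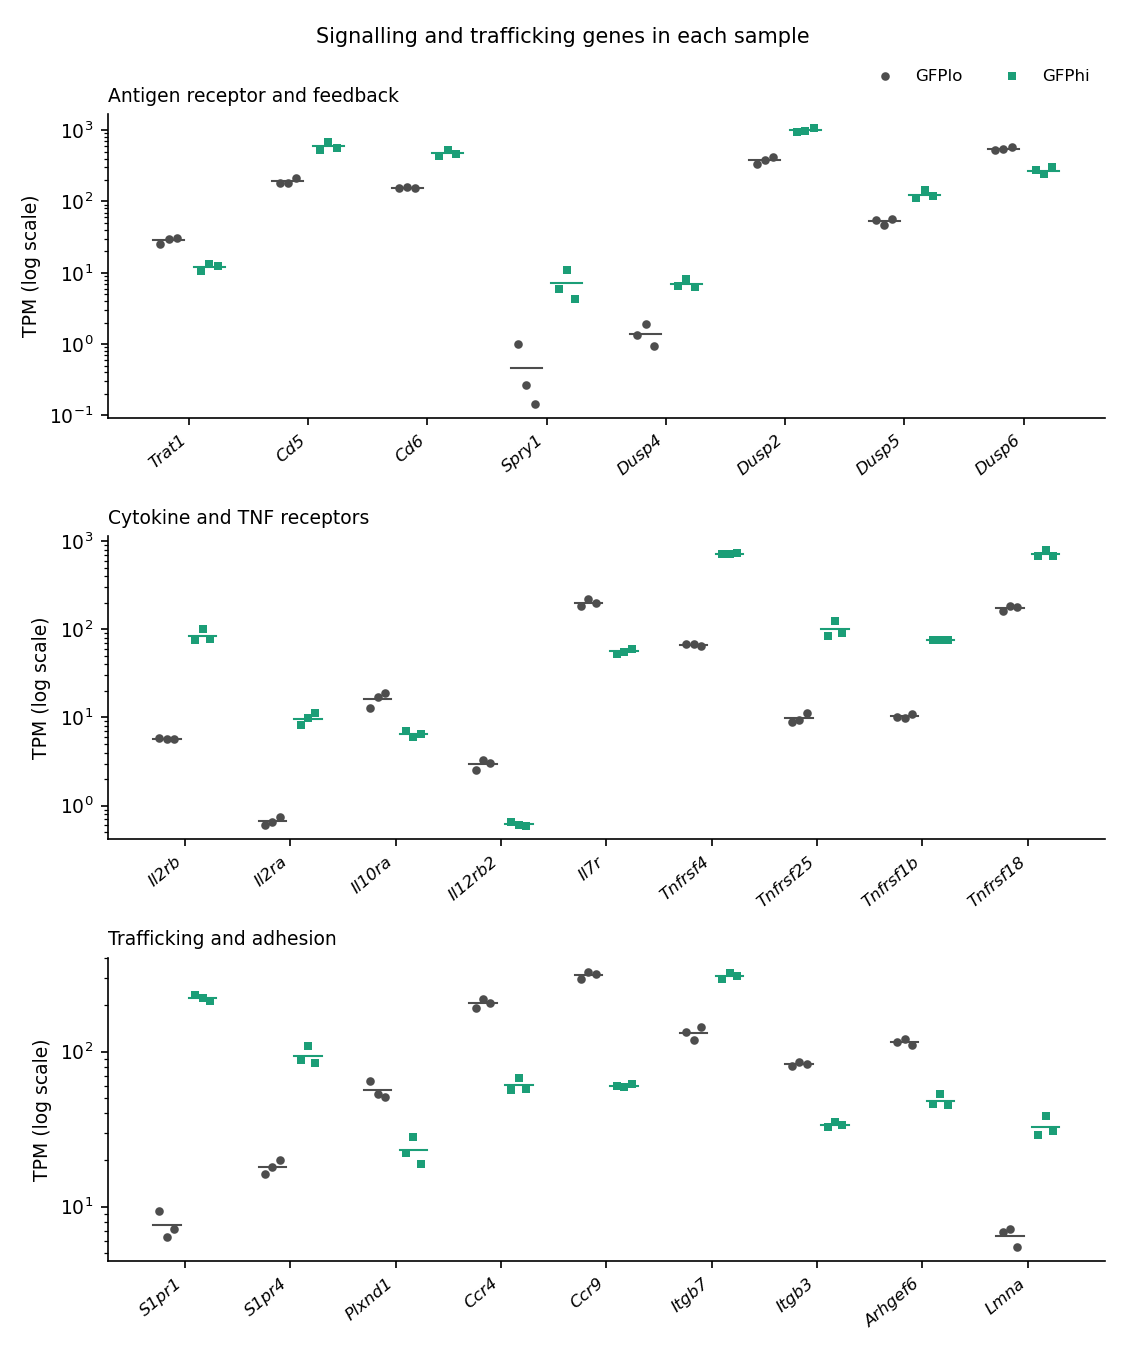
TPM on a log scale of 26 genes in the 3 GFPlo (gray circles) and 3 GFPhi samples (green squares), with lines at the group means, in 3 panels for TCR feedback, receptors and trafficking. No gene overlaps between the groups, Trat1, Dusp6, Il10ra, Il12rb2, Il7r, Plxnd1, Ccr4, Ccr9, Itgb3 and Arhgef6 are lower in GFPhi, and levels of different genes are not on 1 scale.

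Survival genes changed in few places. Of 9 death-promoting BCL2 genes only Bcl2l11, which encodes BIM, was called, at 3.04. Bax (0.04), Bak1 (0.02), Bbc3 (-0.20) and Pmaip1 (0.14) were near level. Bmf reached 1.02 but did not pass the adjusted p limit. Of the survival-promoting genes Bcl2 (chr1:106538178-106714274 in GRCm38), which binds and restrains BIM, had 55.8, 60.1 and 66.5 TPM in GFPlo and 19.9, 24 and 27.1 TPM in GFPhi. All GFPhi samples were lower, with a log2 difference of -1.33 ± 0.12 (SE, adjusted p = 0.000968), and the call was made in all 23 settings that gave it a value. Mcl1 (-0.12) and Bcl2l1 (-0.24) were not called. Bcl2a1d rose by 1.85 and Bcl2a1b by 1.13, but these are near-identical copies between which reads could be split, Bcl2a1b lost its call without GFPhi replicate 3 or GFPlo replicate 2 or 3, and neither was called without replicate 1. Gadd45b, a stress sensor of the GADD45 family, had 16.6, 22.5 and 22.8 TPM in GFPlo and 116, 148 and 135 TPM in GFPhi, with a log2 difference of 2.64 ± 0.14 (SE, adjusted p = 0.000107). The other 16 genes of the p53 and DNA-damage list were not called, Cdkn1a (-0.16) and Trp53 (-0.30) among them. None of 19 caspase and death-adaptor genes was called, and 1, Cflar (-0.40), passed as lower without the fold limit. All 19 heat-shock and unfolded-protein genes had fold changes below 0, with a median of -0.23 against -0.09 over all genes, and none was called. With no fold limit 3 of them passed, Hsph1 (-0.43), Edem1 (-0.41) and Calr (-0.39).

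Trafficking genes divided by receptor. S1pr1 (chr3:115710433-115715072 in GRCm38), whose receptor senses sphingosine-1-phosphate and carries mature thymocytes out of the thymus, had 9.39, 6.35 and 7.2 TPM in GFPlo and 231, 223 and 212 TPM in GFPhi. S1pr4, a relative found on lymphocytes, had 16.3, 18 and 19.9 TPM in GFPlo and 88.4, 109 and 84.2 TPM in GFPhi. Klf2, the factor that induces S1pr1, had 77.5, 89.8 and 96 TPM in GFPlo and 506, 586 and 519 TPM in GFPhi. All 3 rose without overlap, by 4.70, 2.31 and 2.60. Cd69, which binds S1PR1 and holds it inside the cell, had -0.79 and passed the adjusted p limit. Plxnd1, which encodes plexin D1, a guidance receptor that falls as thymocytes mature, was lower by -1.26, a call lost without GFPhi replicate 3 or GFPlo replicate 1 or 2 (adjusted p up to 0.0566) and without replicate 1 of both groups.

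Of 12 chemokine receptor genes tested, 0 were higher and 2 lower. Ccr9, the CCL25 receptor of cortical thymocytes, had 292, 328 and 314 TPM in GFPlo and 59.9, 59 and 62.1 TPM in GFPhi. Ccr4, which guides newly selected thymocytes to the medulla, had 191, 217 and 205 TPM in GFPlo and 56.3, 67.6 and 57.5 TPM in GFPhi. The log2 fold changes were -2.35 and -1.74 (adjusted p of 6.4e-06 and 8.59e-05), and both were called in all 23 settings that gave them a value. Ccr7, the other medullary receptor, had -0.14. Ccr9 overlaps annotated genes on both strands, and the library kit does not mark strand, so reads of its neighbors cannot be told apart from its own.

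Among integrins, Itgb7, the partner of alpha 4 and alpha E, rose from 133, 118 and 144 TPM in GFPlo to 293, 321 and 307 TPM in GFPhi. Itgb3 fell from 80.7, 85.9 and 82.7 TPM in GFPlo to 32.5, 35 and 33.8 TPM in GFPhi. Both calls held without replicate 1. Itga4 (0.52), Itgae (-0.11) and Itgb2 (0.16) were not called. Lgals1, which encodes galectin-1, rose by 1.56 (adjusted p = 0.000265). Arhgap20, a GTPase-activating protein, rose by 4.77, and Arhgef6, an exchange factor for RAC1 and CDC42, fell from 115, 121 and 111 TPM in GFPlo to 45.7, 53.4 and 45.1 TPM in GFPhi. Of 33 actin and cytoskeleton genes, 3 rose. Lmna, which encodes lamin A and C of the nuclear envelope, had 6.88, 7.16 and 5.47 TPM in GFPlo and 29, 38.5 and 30.9 TPM in GFPhi, with a log2 difference of 2.17 ± 0.15 (SE, adjusted p = 0.000311). Lad1, which encodes the filament protein ladinin, rose by 6.55, the largest of all genes named. Actb (-0.44), Coro1a (-0.36) and Tuba4a (-0.90) passed the adjusted p limit below the fold limit.

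By calls at the fold limit, metabolism was the most level of the 5 groups. None of 82 nuclear-encoded oxidative phosphorylation genes and none of 11 mitochondrially encoded genes was called, with medians of 0.02 and 0.20. None of 26 one-carbon, serine, nucleotide and polyamine genes and none of 19 fatty acid genes was called. The 4 called genes each came from a different list. Eno3, the muscle-type enolase of glycolysis, had 10.8, 12.5 and 15.3 TPM in GFPlo and 167, 238 and 187 TPM in GFPhi, with a log2 difference of 3.84 ± 0.19 (SE, adjusted p = 6.08e-05). The other 20 glycolysis genes were not called and 14 of the 21 lay below 0. Aldoa (-0.73), Pdk1 (-0.62), Pgam1 (-0.46) and Pgk1 (-0.31) passed the adjusted p limit as lower. Slc16a3, a lactate exporter, rose by 1.61 (adjusted p = 0.0102), while the glucose transporter Slc2a3 (-0.58) and the lactate transporter Slc16a1 (-0.76) passed as lower without the fold limit. Abca1, a cholesterol exporter, had 2.91, 3.07 and 2.58 TPM in GFPlo and 13, 10.4 and 12.8 TPM in GFPhi. The 25 other cholesterol genes were not called. Mxd1, a repressor that competes with MYC for MAX, had 24.5, 21.9 and 25.9 TPM in GFPlo and 77.3, 72.7 and 76 TPM in GFPhi, with a log2 difference of 1.61 ± 0.10 (SE, adjusted p = 0.000229). Myc itself had -0.26, and 22 of 27 MYC and ribosome biogenesis genes lay below 0 with a median of -0.26 against -0.09 over all genes. Abca1 and Slc16a3 were not called without replicate 1.

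Cytosolic ribosomal protein genes pointed the other way from ribosome biogenesis genes. Of 86 tested, 74 had fold changes above 0, with a median of 0.22 against -0.09 over all genes, and none was called. Under median-of-ratios scaling the medians were 0.30 for ribosomal proteins and -0.17 for MYC and ribosome biogenesis, with -0.02 for all genes. With no fold limit, 23 of 316 metabolism genes passed as lower and 9 as higher, against 1.76% and 2.69% of all genes tested.

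**Figure D3:**
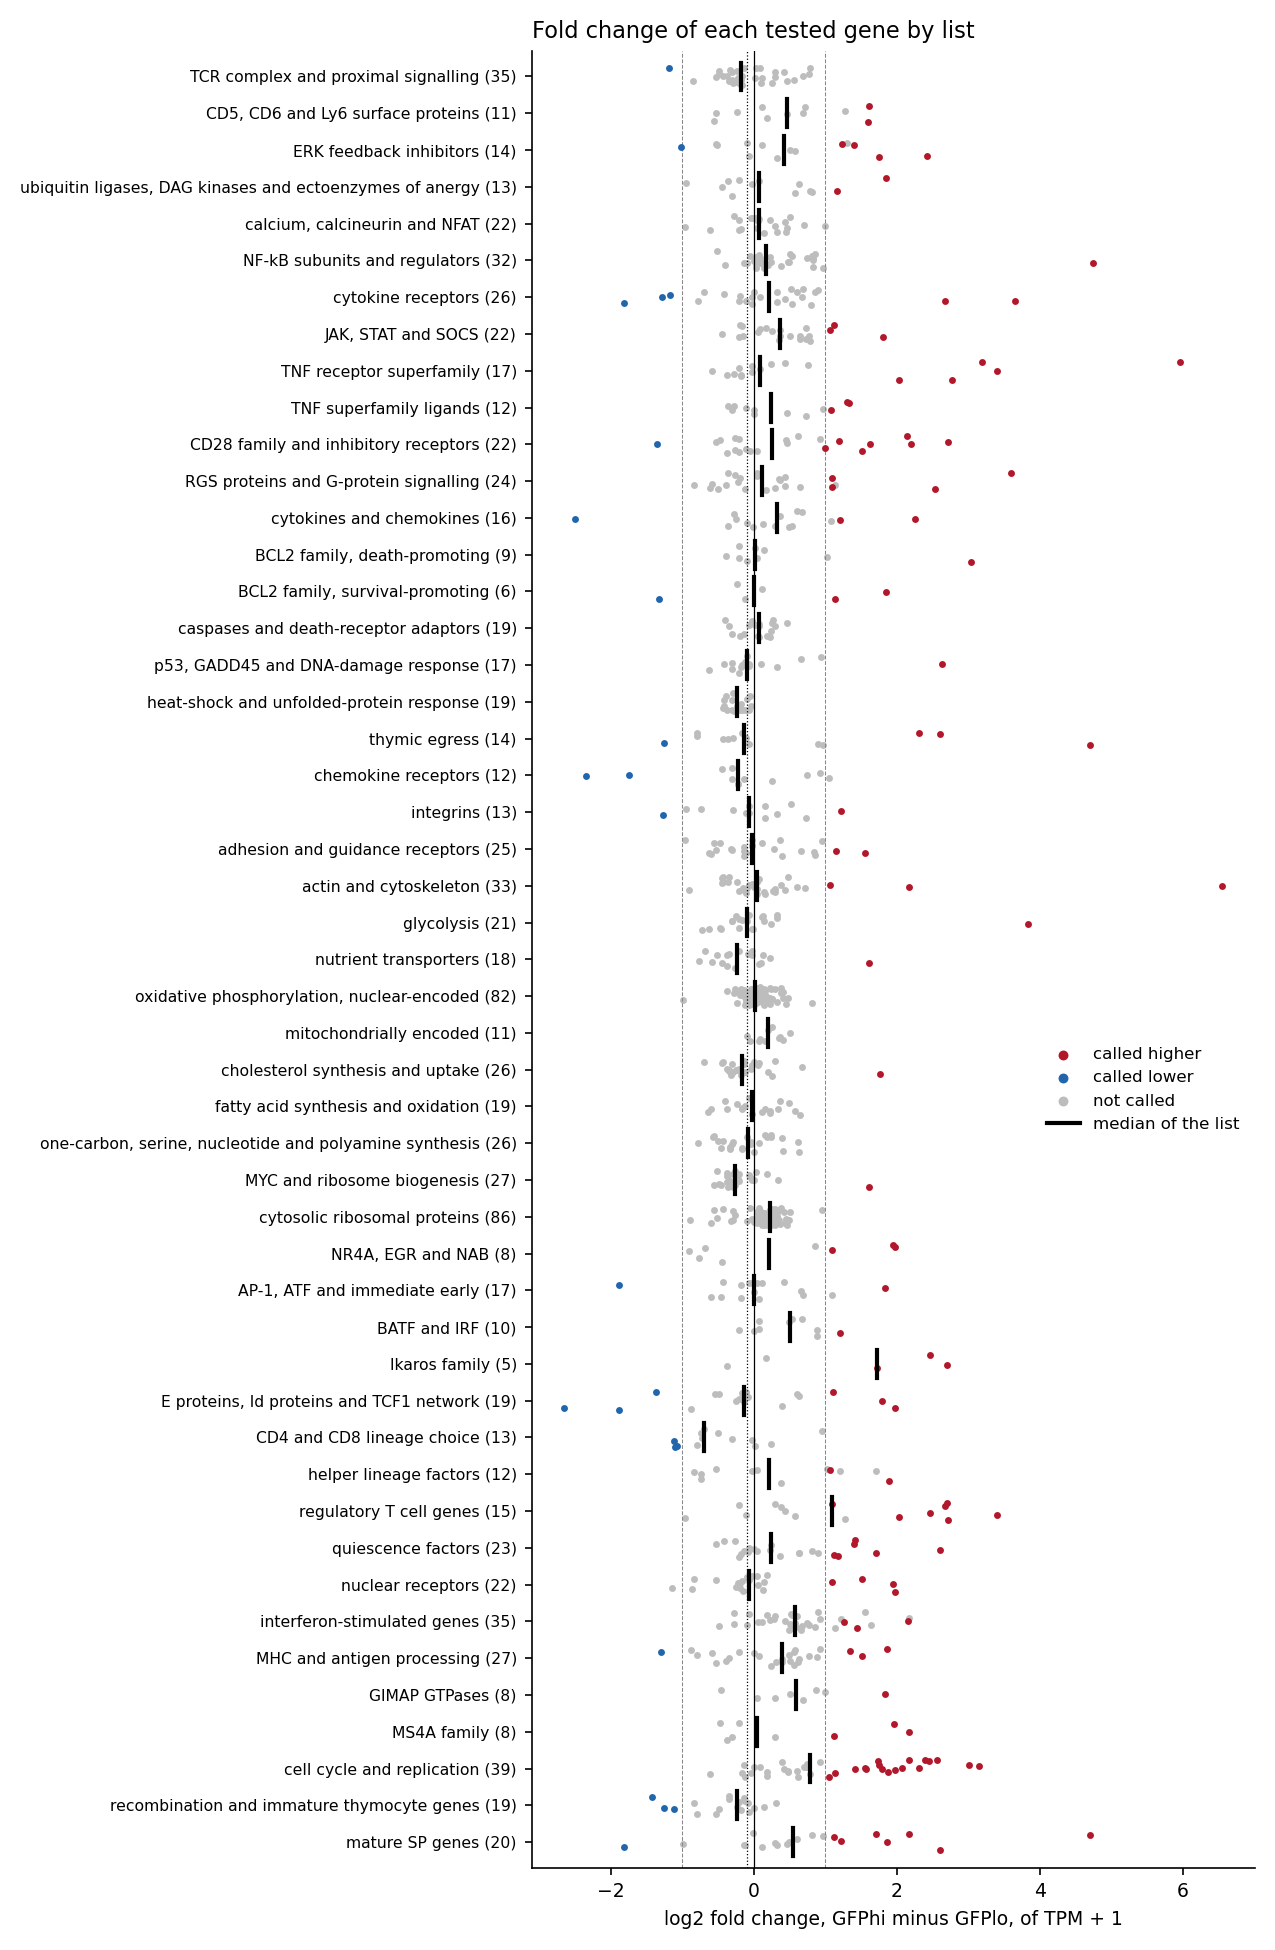
log2 fold change (GFPhi minus GFPlo, of TPM + 1) of every tested gene in 49 lists of genes, with the number tested in brackets, called genes in red and blue, list medians as black bars, the median of all genes (-0.09) as a dotted line and the fold limits dashed. Receptors, Ikaros factors and cell-cycle genes reach far above 1, while oxidative phosphorylation, ribosomal and heat-shock genes stay within 1 of 0.

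In the Ikaros family 3 of 5 genes rose. Ikzf2 (chr1:69531214-69687245 in GRCm38), which encodes HELIOS, had 1.62, 1.54 and 1.49 TPM in GFPlo and 15.9, 14.3 and 16.5 TPM in GFPhi. Ikzf4, which encodes EOS, had 6.8, 6.43 and 6.36 TPM in GFPlo and 36.9, 41.6 and 43.1 TPM in GFPhi. Ikzf3, which encodes AIOLOS, had 7.41, 6.88 and 7.55 TPM in GFPlo and 25.6, 26.3 and 27.2 TPM in GFPhi. None of the 3 overlapped between the groups, at 2.7, 2.46 and 1.73, whereas Ikzf1, which encodes IKAROS itself, had 0.17. The 3 calls held without replicate 1.

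Id proteins, which block E protein binding to DNA, moved in opposite directions. Id3 had 589, 632 and 616 TPM in GFPlo and 1172, 1513 and 1289 TPM in GFPhi and a log2 fold change of 1.11. Id2 had 1317, 1616 and 1580 TPM in GFPlo and 216, 273 and 228 TPM in GFPhi and -2.65, with adjusted p of 0.00158 and 5.5e-05. E protein genes were near level, with Tcf3 at 0.40 and Tcf12 at -0.08. Myb, an early thymocyte factor, rose from 8.72, 7.67 and 8.23 TPM in GFPlo to 30.9, 39.7 and 35.6 TPM in GFPhi. Gfi1, a repressor, rose by 1.79. Satb1, a chromatin organizer that is high in thymocytes, fell from 753, 749 and 778 TPM in GFPlo to 275, 309 and 295 TPM in GFPhi, with a log2 difference of -1.37 ± 0.07 (SE, adjusted p = 7.59e-05). Sox13 fell by 1.88 on the log2 scale (adjusted p = 0.0128), a call lost without GFPlo replicate 2 or 3 (0.0518 and 0.0569). Tcf7 (-0.13) was not called, and Lef1 (-0.88) passed the adjusted p limit below the fold limit.

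Genes of the CD4 and CD8 choice leaned down. Of 13 tested, 0 were higher and 3 lower, with a median of -0.70. Runx1 had 14.9, 16 and 15.5 TPM in GFPlo and 6.94, 6.3 and 7.21 TPM in GFPhi, with a log2 difference of -1.08 ± 0.12 (SE, adjusted p = 0.00255). Tox2 fell from 221 to 308 reads per sample to 68 to 98. Cd8a was lower by -1.12, a call lost without GFPhi replicate 3 or GFPlo replicate 2 or 3 (adjusted p up to 0.0703). None of the 3 was called without replicate 1. Gata3 (-0.74), Tox (-0.70) and Patz1 (-0.50) passed the adjusted p limit below the fold limit, as did Runx3 (0.96) upward. Zbtb7b, which encodes ThPOK, had -0.72 and did not pass. Genes of recombination and the immature stage gave 0 higher and 3 lower calls of 19, Dntt, Plxnd1 and Cd8a. Dntt, the terminal transferase of receptor rearrangement, had 12.2, 14.6 and 13.9 TPM in GFPlo and 4.49, 3.7 and 5.03 TPM in GFPhi. Rag1 had -0.20. Without replicate 1 of both groups none of the 19 was called. Reads on the 10 markers of CD8 and DP cells summed to 166 to 180 RPM in GFPlo and 101 to 131 RPM in GFPhi, and their part in these falls was not tested.

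In the immediate early group, Nr4a3 (1.97) rose, as did Nr4a1, which is only a check of the labels. Egr1 (-0.76), Egr2 (-0.90) and Nab2 (-0.68) passed the adjusted p limit as lower and Egr3 (0.86) as higher. Nr4a2 was called at 1.10 but lost the call in 8 of 9 fits with 1 sample left out (adjusted p up to 0.135). Jun fell from 11.3, 15 and 13.8 TPM in GFPlo to 1.94, 4.09 and 2.8 TPM in GFPhi, with a log2 difference of -1.89 ± 0.28 (SE, adjusted p = 0.00949). Fosl2 rose by 1.83 (adjusted p = 0.0159), a call lost without GFPhi replicate 3 or GFPlo replicate 2 or 3 (adjusted p up to 0.0581). Fos (0.69) was not called. The fall of Jun was not called without replicate 1.

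Of 23 genes linked to quiescence, 6 were higher and 0 lower, and without replicate 1 the counts were 3 and 0. Besides Klf2, Klf3 had 19.8, 20.1 and 19.4 TPM in GFPlo and 45.3, 62.1 and 55.5 TPM in GFPhi. Btg1, an antiproliferative factor that promotes decay of mRNA, had 612, 634 and 660 TPM in GFPlo and 1352, 1566 and 1423 TPM in GFPhi. Slfn1 rose by 1.71 and was not called without replicate 1. Foxo1 (0.90), which induces Klf2, passed the adjusted p limit below the fold limit, and Txnip (-0.53) was not called. Bcl6, a transcriptional repressor that drives follicular helper T cells, rose from 11.1, 8.57 and 8.3 TPM in GFPlo to 32.9, 45.2 and 33.9 TPM in GFPhi, with a log2 difference of 1.89 ± 0.17 (SE, adjusted p = 0.000877). Among nuclear receptors outside the NR4A group, Rarg rose by 1.52 (adjusted p = 0.0132), a call lost without GFPlo replicate 2 or 3 (0.0573 and 0.0533).

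**Figure D4:**
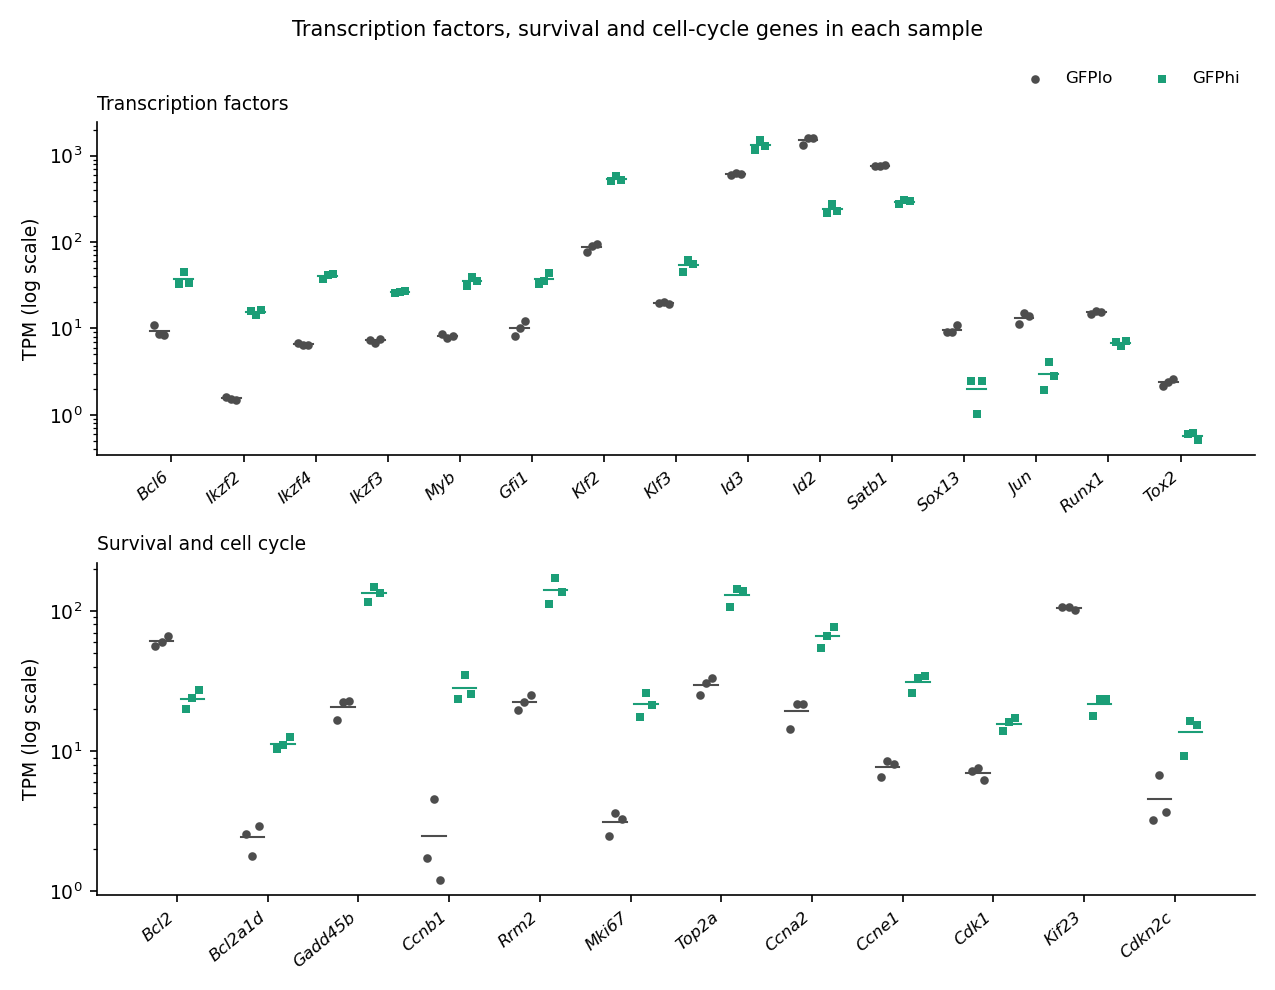
TPM on a log scale of 15 transcription factor genes and 12 survival and cell-cycle genes in the 3 GFPlo (gray circles) and 3 GFPhi samples (green squares), with lines at the group means. Id2, Satb1, Sox13, Jun, Runx1, Tox2, Bcl2 and Kif23 are lower in GFPhi, the other genes are higher, and no gene overlaps between the groups. Among the higher genes, Cdkn2c lost its call in 7 of 9 limma fits with 1 sample left out (adjusted p up to 0.156), and Cdk1 in 2.

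Of 15 genes of regulatory T cells, measured in a sort that removed CD25+ cells, 7 were higher and 0 lower, with a median of 1.10, and 6 were higher without replicate 1. Besides Ikzf2, Ikzf4, Il2ra, Tnfrsf4 and Tnfrsf18, these were Ctla4 (2.72), an inhibitory receptor for CD80 and CD86, and Foxp3. Foxp3, the factor that defines the lineage, had 6.57, 6.65 and 7.04 TPM in GFPlo and 14, 14.8 and 18.4 TPM in GFPhi, with a log2 difference of 1.10 ± 0.16 (SE, adjusted p = 0.00939). It was not called without replicate 1 of both groups, and its log2 difference was 0.99 without GFPhi replicate 3. The 5 regulatory T cell markers, Foxp3, Il2ra, Lrrc32, Gpr83 and Ikzf4, summed to 145 to 164 RPM in GFPlo and 333 to 354 RPM in GFPhi. None was at 0. Gpr83 (0.44) and Lrrc32 (1.27) were not called, and Nrp1 (-0.96) passed the adjusted p limit as lower. The part of such cells in the rises of Foxp3, Il2ra, Ikzf2, Ikzf4, Ctla4, Tnfrsf4 and Tnfrsf18 was not tested.

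Cell-cycle genes held many of the higher calls. Of 39 tested, 18 were higher and 0 lower, with a median of 0.79, and 34 were above 0. Ccnb1, the mitotic cyclin, rose from 8 to 33 reads per sample to 190 to 284, and Mki67, a mark of cycling cells, from 53 to 97 reads to 587 to 782. Rrm2, a subunit of ribonucleotide reductase, had 19.5, 22.5 and 25.3 TPM in GFPlo and 111, 172 and 136 TPM in GFPhi. Top2a, the topoisomerase of dividing cells, had 25.2, 30.8 and 33.1 TPM in GFPlo and 106, 143 and 139 TPM in GFPhi. Ccne1, the cyclin of entry into S phase, had 6.57, 8.55 and 8.07 TPM in GFPlo and 25.9, 33 and 34.5 TPM in GFPhi. Their log2 fold changes were 3.15, 2.45, 2.57, 2.08 and 1.88, and GFPhi lay above GFPlo in every sample. The replication helicase genes Mcm3 (0.74), Mcm6 (0.70) and Mcm7 (0.60) passed the adjusted p limit below the fold limit, and Pcna (0.19), Cdk4 (-0.04) and Ccnd1 (-0.12) were not called. Without replicate 1 of both groups 9 genes of the list were called, Ccnb1 not among them. Kif23, a kinesin of cytokinesis outside the list, went the other way, from 106, 106 and 101 TPM in GFPlo to 17.9, 23.7 and 23.4 TPM in GFPhi, with a log2 difference of -2.22 ± 0.12 (SE, adjusted p = 0.000116). Its interval overlaps no other annotated gene.

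Genes of maturation, interferon response and antigen presentation also leaned up. Of 20 genes of mature single positive cells, 7 rose and 1, Il7r, fell, with a median of 0.55. Ms4a4b, a membrane protein of naive T cells, had 50, 34.3 and 42.3 TPM in GFPlo and 216, 180 and 182 TPM in GFPhi. Ms4a4c and Ms4a6b of the same family rose by 1.96 and 1.12, and Ms4a4c was not called without replicate 1 of both groups, and Ms4a6b was not called without GFPlo replicate 2. H2-K1, an MHC class I heavy chain, had 1198, 1000 and 1151 TPM in GFPlo and 3211, 3125 and 3267 TPM in GFPhi, and B2m (0.77) and Tap1 (0.51) passed the adjusted p limit below the fold limit. H2-Q7 rose by 1.87, a call lost without GFPlo replicate 2 or 3 (adjusted p of 0.0518 and 0.0505), but H2 genes share near-identical copies and are uncertain. H2-Ob, an MHC class II modulator, fell by 1.30 on the log2 scale and was not called without replicate 1. Of 35 interferon-stimulated genes 30 were above 0, with a median of 0.58 against -0.09 over all genes, and 3 were called. Ifi27l2a had 278, 154 and 286 TPM in GFPlo and 1151, 903 and 1066 TPM in GFPhi, and the lowest value was in GFPlo replicate 2. Isg15 (0.54) and Ifit1 (1.22) were not called, and without replicate 1 none of the 35 was. Gimap3, a GTPase of lymphocyte survival, had 335, 303 and 350 TPM in GFPlo and 1090, 1261 and 1170 TPM in GFPhi and rose by 1.83, but Gimap genes also share similar copies.

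The largest changes outside the lists, under the filter for naming given with the processing below, were varied. Tagap, a GTPase-activating protein of thymocytes, rose from 10.4, 4.23 and 8.32 TPM in GFPlo to 128, 129 and 146 TPM in GFPhi. Nrgn, which encodes neurogranin, a calmodulin-binding protein, rose from 4.3, 5.11 and 8.35 TPM in GFPlo to 73.9, 118 and 94.9 TPM in GFPhi. Cyth4, an ARF exchange factor, rose from 6.85, 8.27 and 5.68 TPM in GFPlo to 92.5, 113 and 97.6 TPM in GFPhi. The 3 log2 fold changes were 4.04, 3.82 and 3.69. Rln3 (3.95), Chchd10 (3.78), Neurl3 (3.56) and Tmem121b (3.44) complete the 15 largest rises that passed this filter. Of these 15, Arhgap20, Bcl3, Tagap, Chchd10 and Rgs16 overlap genes annotated on the opposite strand. Among falls, Myo6, an actin motor, went from 10.4, 12.3 and 19.4 TPM in GFPlo to 1.14, 0.774 and 1.18 TPM in GFPhi, with a log2 difference of -2.84 ± 0.28 (SE, adjusted p = 0.00154). Il17rb, a receptor of IL-25, fell from 79.3, 79.6 and 88.3 TPM in GFPlo to 19.8, 20.1 and 18.8 TPM in GFPhi. Mmp9 (-2.16), Ctla2a (-2.25), Dmwd (-2.36) and Myl10 (-1.99) fell as well, and Mmp9, Ctla2a and Myl10 were not called without replicate 1. Rpl35-ps1 (-2.48), whose call was lost in 4 of 9 fits with 1 sample left out, and Minpp1-ps were pseudogenes, whose reads may come from their parent genes.

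Markers of other cells were measured in the same samples. Thymic epithelial markers summed to 66.3 to 81.8 RPM in GFPlo and 113 to 122 RPM in GFPhi, of which Epcam was called at 1.38 but neither without replicate 1 of both groups nor without GFPhi replicate 3 (adjusted p = 0.0526), while Foxn1 and Aire did not reach the filter. B cell markers summed to 153 to 247 RPM in GFPlo and 108 to 184 RPM in GFPhi, and myeloid and dendritic markers to 159 to 204 and 162 to 234 RPM. No gene of the B cell, myeloid, erythroid and NK or gamma delta lists was called. The part of epithelial RNA in any gene named was not tested. Of the 122 called genes chosen by the naming rule, 97 were called in all 9 fits with 1 sample left out, and 73 without replicate 1 of both groups.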

How the data were processed

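RNA from sorted thymocytes was made into SMART-seq v4 and NexteraXT libraries. The authors removed duplicates and counted reads per gene with STAR (2.7.11b) on GRCm38, and deposited TPM per sample. TPM was per genomic span: the divisor was the mean transcript span for 100% of 19459 protein-coding genes checked. The signal columns deposited by the authors, group means of counts normalized in DESeq2 (1.34.0), served only to solve read numbers. The authors' fold changes, adjusted p-values and scores per comparison were not used.

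Genes with TPM of at least 1 in 3 or more of the 6 samples were fitted as log2(TPM + 1) with limma 3.58.1 (R 4.3.3, eBayes with trend) on all 9 samples, which share 1 estimate of spread. Calls needed a log2 fold change of at least 1 in size and p, adjusted by Benjamini and Hochberg's method, of 0.05 or less. The script was tested on simulated data. Named genes were the largest called changes of each list (all called genes in lists with 6 or fewer, the strongest uncalled ones otherwise), the 15 largest rises and falls, and SP4 markers, with other list members given beside them. The 15 rises and falls were drawn from called genes whose groups did not overlap and whose higher group passed a floor on mean TPM. Genes named only by a clone or serial number, microRNA and snoRNA genes, and immunoglobulin or TCR segments were left out of these 15. Groups came from the sort labels. Comparison members and gene lists were chosen with earlier results of these data known. Replicates are biological per the labels, and p-values set the difference of group means against the spread between samples, GFPmed included. Whether samples of different gates came from the same animals is not given. Read totals of 7545460 to 11627359 limit precision for genes of few reads. Of 526 called genes with coordinates, 231 overlap another annotated gene, 183 of them on the other strand. Some genes and 1 gene list are not reported here.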

Additional observations from a re-analysis of the deposited data

How the results depend on the processing

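The call counts over all genes were 401 higher and 131 lower. Among the 11500 genes above the olfactory receptor level they were 216 and 65. The main fit tested 28712 genes, so all counts above that level come from fewer genes. The counts became 180 and 72 without replicate 1 of both groups, and 771 and 504 with no fold limit. The lower count was 74 with median-of-ratios scaling and 86 with only the 6 samples. Above the olfactory receptor level there were 22 higher and 4 lower signaling genes, 2 higher survival, 2 higher metabolism and 16 higher and 4 lower transcription factor and lineage genes. Without replicate 1 of both groups these were 23 and 3, 2, 2, and 16 and 2. With no fold limit there were 75 and 21 signaling, 7 lower survival, 23 and 16 trafficking, 9 and 23 metabolism and 17 lower transcription factor and lineage genes. Lower signaling genes numbered 4 with median-of-ratios scaling and 4 with quantile normalization, which gave 3 lower transcription factor and lineage genes. Fitting solved reads with voom gave 496 and 147 calls, or 572 and 124 with size factors and 1 lower metabolism gene. Leaving out 1 sample at a time gave 275 to 367 higher and 81 to 175 lower genes, with 81 without GFPlo replicate 2. The ranges were 28 to 36 and 6 to 7 for signaling, 3 to 5 and 1 for survival, 8 to 11 and 4 to 6 for trafficking, 4 to 5 and 0 for metabolism, and 18 to 24 and 5 to 8 for transcription factor and lineage genes. A replicate block gave 356 and 133 calls, of which 335 and 100 were shared. Deviations of same-numbered samples correlated by 0.0678 on average (0.0126 to 0.246 over 9 pairs). Those of differently numbered samples correlated by -0.0339 (-0.207 to 0.161 over 18 pairs). Because deviations were taken from the group means, this second average nearly follows from the first and is no separate evidence on pairing. The sources do not say whether a number marks the same animal, and the main fit did not take the numbers as a pairing. Of the 122 called genes chosen by the naming rule, 0 changed direction under the alternatives run. The cause of these shifts was not tested. Genes of few reads and genes near the fold limit are bounded by depth.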
